A study of Rattus norvegicus with 6 samples.

Results

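The genes described here are listed as immediate early genes and were read in the regenerating sciatic nerve of the rat. Immediate early genes give the transcripts that a cell makes within minutes of a stimulus from factors already present. Most of those listed are of this kind, while Jund is made in most cells. The genes were chosen by name, as 10 symbols, with the level of Fosb in 1 library already known. Of these, 9 were found among the 23091 genes of the table, each with 1 entry: Fos, Fosb, Fosl1, Fosl2, Jund, Atf3, Egr1, Egr3 and Nr4a1. Junb was not analysed here. All 9 passed the filter on low counts, which left 13999 genes. The value that set the choice, Fosb in NC 3, is given as a description with no test.

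Messenger RNA came from 6 libraries of wild-type male Sprague-Dawley rats that all carried a sciatic nerve defect. In the control group (NC 1 to NC 3) the wound was closed with no further treatment. In the other group (implant 1 to implant 3, for GDNF-Gel/HA-Mg group 1 to 3) GDNF-Gel/HA-Mg was placed in the defect. This is a nerve conduit that delivers glial cell line-derived neurotrophic factor. The labels give neither the time after surgery, nor the time from death to freezing of the tissue, nor whether each library is a separate animal. The p-values below therefore refer to the spread between these samples, which may be technical.

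Fos, Fosb, Fosl1 and Fosl2 encode the Fos proteins, which bind DNA only as dimers, mostly with a Jun protein (Jun, Junb or Jund). The dimers form the transcription factor AP-1. Atf3 is a related leucine zipper protein, widely used as a marker of injured neurons and also induced in Schwann cells of cut nerve, where Jun drives the repair state. Egr1 and Egr3 are zinc finger factors and Nr4a1 is an orphan nuclear receptor. Most of them belong to the first wave of transcription that growth factors, calcium, cell stress and tissue handling can set off through kinases, serum response factor and CREB.

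RefSeq (build GRCr8) gave promoters for 7 of the 10 symbols, and Fos, Atf3 and Egr3 had none in that table. Shown are the 250 bases before the annotated start of Fosb, which stood apart in NC 3, and of Jund and Nr4a1. Over all libraries, Jund had the highest Pearson's r with Fosb among the members and Nr4a1 the highest rank correlation. The r of Jund rests on NC 3 (0.42 without it), and the rank order of the low Fosb libraries is not fully resolved. Capitals mark matches on either strand to TGACG, the core of the CREB site, which reads CGTCA on the other strand and lies within the full site TGACGTCA. The AP-1 site TGANTCA and the CArG box of serum response factor were searched on both strands too and have no match in these 3 windows.
Fosb (chr1:88089185-88089434, minus strand): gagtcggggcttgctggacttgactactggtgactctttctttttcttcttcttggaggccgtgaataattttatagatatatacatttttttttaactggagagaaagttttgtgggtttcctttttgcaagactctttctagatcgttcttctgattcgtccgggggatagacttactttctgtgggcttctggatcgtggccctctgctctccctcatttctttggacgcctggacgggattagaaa
Jund (chr16:18769772-18770021, minus strand): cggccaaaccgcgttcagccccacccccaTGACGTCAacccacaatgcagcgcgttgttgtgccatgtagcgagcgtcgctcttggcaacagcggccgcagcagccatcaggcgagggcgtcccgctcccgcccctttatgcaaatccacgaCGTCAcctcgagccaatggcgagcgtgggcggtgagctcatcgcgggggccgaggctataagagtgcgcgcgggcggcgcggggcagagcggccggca
Nr4a1 (chr7:134259888-134260137, plus strand): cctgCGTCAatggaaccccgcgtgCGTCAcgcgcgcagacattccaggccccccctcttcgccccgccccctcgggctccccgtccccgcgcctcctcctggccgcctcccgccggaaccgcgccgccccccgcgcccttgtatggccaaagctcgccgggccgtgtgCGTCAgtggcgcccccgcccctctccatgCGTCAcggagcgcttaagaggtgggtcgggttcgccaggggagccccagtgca

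Nr4a1 holds 4 matches to TGACG and Jund 3, of which 2 are the 2 strands of one full site, while Fosb holds 0. Of the 33469 promoter windows of this length in the table, 18.2% hold TGACG, 1.59% the full site TGACGTCA, 6.34% TGANTCA and 1.5% a CArG box. Among the other windows, Fosl1 has 2 matches to TGACG, Junb 1 and Fosl2 0. Egr1 has 2 CArG boxes, which begin at positions -105 and -83 relative to its start, and 2 matches to TGACG. A match is a string of letters and no match says only that the letters are not in this window.

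Fosb (ENSRNOG00000046667) had 4855 counts in NC 3 and between 108 and 233 in each of the other 5 libraries. In CPM (counts scaled to library size, with TMM factors) its level was 5.61 in NC 1, 10.9 in NC 2 and 351 in NC 3. The level was 13.6 in implant 1, 9.62 in implant 2 and 9.73 in implant 3. NC 3 thus stood at 25.7 times the next library, implant 1, and at 34.4 times the median of the other 5 (CPM with 0.5 added). The 95% counting interval in NC 3 was 341 to 361 CPM, which covers counting error only. Among the other 5, NC 1 was lowest, with an interval of 4.60 to 6.77 CPM that none of the others touched. The intervals of NC 2, implant 2 and implant 3 overlapped each other, and that of NC 2 reached into that of implant 1.

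**Figure D1:**
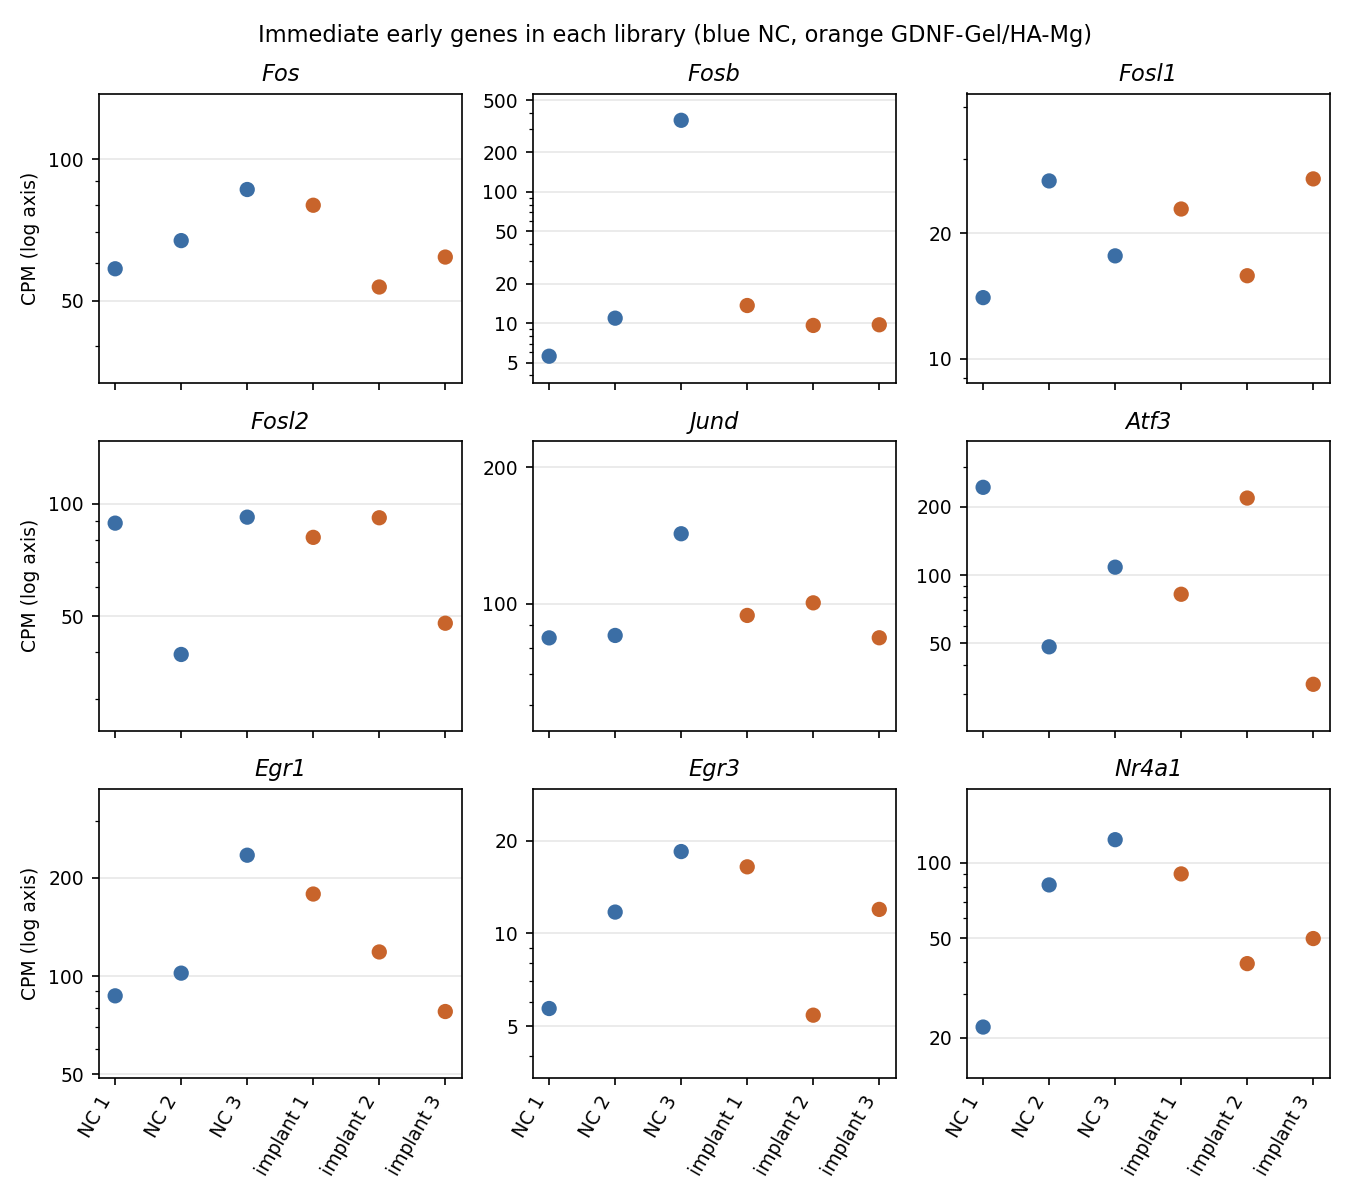
Level of each of the 9 genes in each library, in CPM on a log axis, with 1 point a library (blue NC, orange GDNF-Gel/HA-Mg). Fosb stood at 351 CPM in NC 3 and at 13.6 or below elsewhere, while Atf3 was highest in NC 1 and implant 2.

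The excess of Fosb also showed as a ratio of 2 genes within a library, which needs no scaling. Per 100 counts of Fos there were 9.59, 16.3 and 407 counts of Fosb in the NC libraries (1 to 3 in order) and 17.1, 18.0 and 15.7 in the implant libraries. Against Nr4a1 the ratio in NC 3 was 11.2 times that of the next library, and against Egr1 12.0 times. Against Nr4a3, a gene described below that was itself high in NC 3, it was 1.88 times (1226 counts of Fosb per 100 of Nr4a3, and 652 in NC 2). The table's counts for Fosb were whole numbers in every library. The nearest protein-coding genes on either side in RefSeq order did not share the peak. Ercc1, a DNA repair nuclease, stood at 10.3, 9.54 and 11.1 CPM in NC against 13.8, 13.3 and 8.55 in the implant libraries. Rtn2, a reticulon, stood at 1.19, 3.01 and 3.11 CPM in NC against 1.99, 7.39 and 23.8 in the implant libraries. RefSeq places 1 non-coding RNA gene, LOC103691049, over Fosb, and libraries that do not mark the strand cannot tell its reads from those of Fosb.

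The other Fos genes had no such peak. Levels below use TMM, and on deposited totals with no scaling factor NC 3 was not the highest library for Fos, Fosl2, Egr1, Egr3 or Nr4a1. Fos (ENSRNOG00000008015), the founding member, stood at 58.5, 67.1 and 86.2 CPM in NC against 79.8, 53.5 and 61.9 in the implant libraries. It was highest in NC 3, by 1.08 times over implant 1, and spanned 1.61-fold over the 6 libraries, the narrowest range of the 9 genes. Fosl2 (ENSRNOG00000068412), which encodes Fra-2, stood at 88.8, 39.5 and 92.2 CPM in NC against 81.4, 91.8 and 47.9 in the implant libraries. Its 2 low libraries, NC 2 and implant 3, were 1 of each group. Fosl1 (ENSRNOG00000020552), which encodes Fra-1, stood at 14.0, 26.6 and 17.6 CPM in NC against 22.8, 15.8 and 26.9 in the implant libraries. NC 3 was here 0.655 times the highest other library. Fosl1 was the only one of the 9 whose deposited counts were not whole, in all 6 libraries, so reads shared with another entry may be in its values.

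Jund (ENSRNOG00000019568), a Jun protein made in most cells, stood at 84.2, 85.3 and 143 CPM in NC against 94.4, 101 and 84.3 in the implant libraries. Outside NC 3 its 5 libraries lay within 84.2 to 101 CPM, and NC 3 was 1.42 times the highest of them. Jun, which is not among the 9 genes, had another pattern, at 388, 179 and 216 CPM in NC against 233, 366 and 153 in the implant libraries. NC 3 was thus the highest library for Jund and not for Jun, by a margin far smaller than that of Fosb.

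Egr1 (ENSRNOG00000019422) stood at 87.1, 102 and 235 CPM in NC against 179, 119 and 77.9 in the implant libraries. NC 3 was highest, 1.32 times implant 1 and 2.29 times the median of the other 5. Egr3 (ENSRNOG00000017828) stood at 5.71, 11.7 and 18.4 CPM in NC against 16.4, 5.43 and 12.0 in the implant libraries. Its low libraries were NC 1 and implant 2. Nr4a1 (ENSRNOG00000007607) stood at 22.1, 81.6 and 124 CPM in NC against 90.3, 39.6 and 49.8 in the implant libraries. NC 3 was 1.37 times the next library and 2.47 times the median of the other 5, the highest such ratio after Fosb.

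Atf3 (ENSRNOG00000003745) stood at 244, 48.3 and 109 CPM in NC against 82.4, 219 and 33.0 in the implant libraries. It was highest in NC 1 and implant 2 and spanned 7.40-fold. NC 3 lay in the middle, at 0.444 times NC 1. The injury marker of the set therefore did not share the Fosb peak.

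Fosb was chosen for its level in NC 3, so counts are given for the other 8 genes. Of these, 6 were highest in NC 3, against 24.8% of all genes tested. With a margin of at least 2-fold over the next library it was 0 of 8, against 1.86% of all genes. The first count rests on the scaling. Haemoglobin took 25.2% of the counts in NC 3 and 1.02% to 14.8% elsewhere. On deposited totals 1 of the 8, Jund, was highest in NC 3, against 6.71% of all genes. That scaling moved the median of all genes in NC 3, relative to the other 5 libraries, from -0.02 to -0.45 log2 units. Relative to the median of all genes, the median of the 8 genes in NC 3 was 0.57 log2 units higher with TMM and 0.50 on deposited totals. On deposited totals the log2 ratio of NC 3 to the median of the other 5 libraries was 4.75 for Fosb, 0.70 for Egr1, 0.15 for Jund and -0.05 for Fos.

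**Figure D2:**
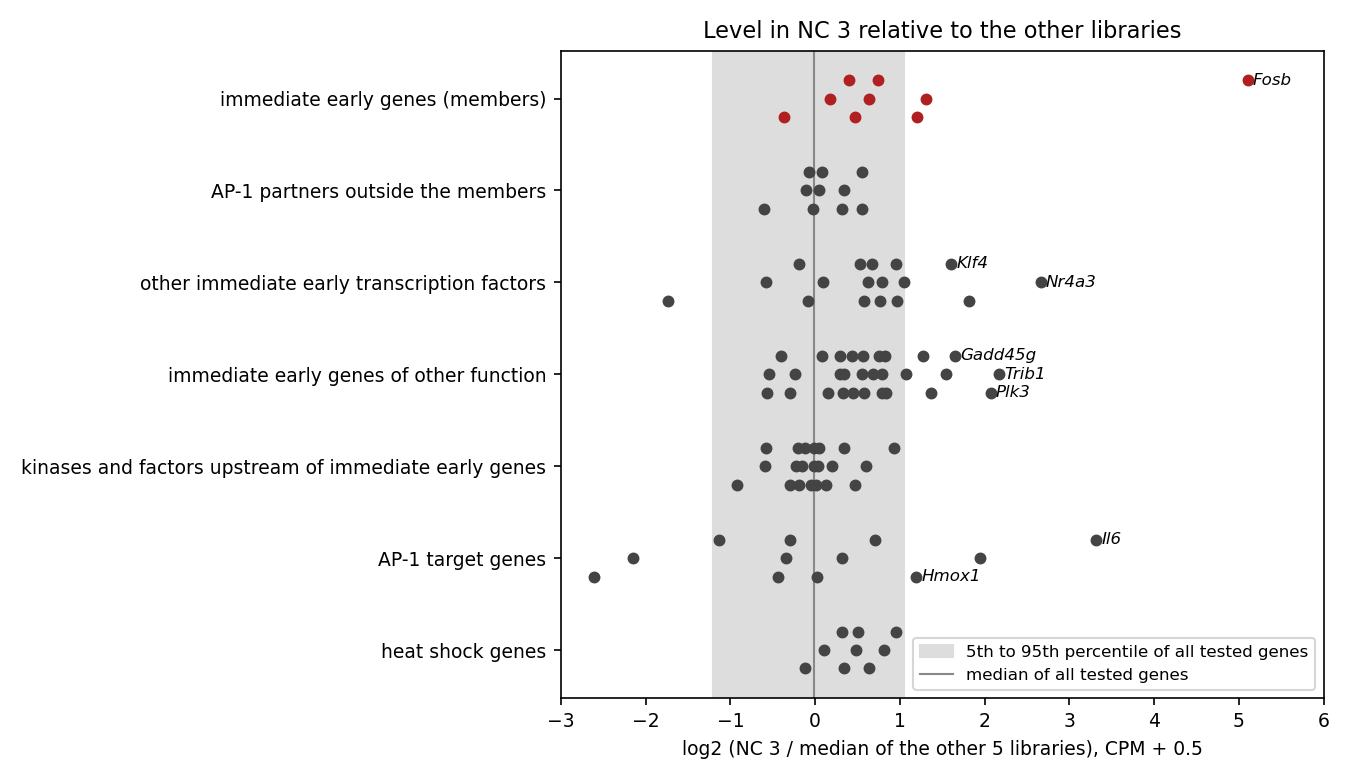
Level in NC 3 relative to the median of the other 5 libraries, as a log2 ratio of CPM with 0.5 added, with 1 point a gene and 1 row a gene list, and names for genes at least 2-fold above every other library. Fosb lies at 5.10, and of the other 8 members Egr1 (1.20) and Nr4a1 lie above the shaded middle 90% of all genes tested (-1.21 to 1.04), while Fosl1 is lowest at -0.36.

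Other immediate early genes were read from lists of symbols. Of 17 tested transcription factors of this class, 11 were highest in NC 3, and 2 by at least 2-fold (11.8%, against 1.86% of all genes). These were Nr4a3, a sister of Nr4a1, and Klf4, a zinc finger factor of the Krüppel-like family. Nr4a3 stood at 4.10, 1.68 and 28.6 CPM in NC against 6.32, 4.67 and 2.77 in the implant libraries, so that NC 3 was 4.53 times the next library. Klf4 stood at 50.8, 48.7 and 156 CPM in NC against 65.6, 73.0 and 49.6 in the implant libraries.

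Of 29 immediate early genes of other function, 15 were highest in NC 3 and 3 by at least 2-fold (10.3%). Plk3, a polo-like kinase of the stress response, stood at 5.35, 5.14 and 26.7 CPM in NC against 8.19, 7.66 and 5.96 in the implant libraries. Trib1, a pseudokinase, stood at 18.0, 13.9 and 82.8 CPM in NC against 27.7, 23.9 and 15.3 in the implant libraries. Gadd45g, a growth arrest gene, stood at 10.2, 5.95 and 27.4 CPM in NC against 8.37, 12.3 and 6.90 in the implant libraries. In each of the 3 the NC 3 library stood at 2.22 to 3.26 times the next, well short of the margin of Fosb.

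Of 12 AP-1 target genes, 3 were highest in NC 3 (25%, against 24.8% of all genes). The median log2 ratio of NC 3 to the median of the other 5 libraries was -0.14 for this list and -0.02 for all genes. By at least 2-fold, 2 of the 12 were highest in NC 3 (16.7%, against 1.86% of all genes). Il6, an inflammatory cytokine, stood at 0.727, 0.347 and 11.7 CPM in NC against 1.05, 1.68 and 0.531 in the implant libraries, so that NC 3 was 6.95 times the next library. Hmox1, haem oxygenase, stood at 15.3, 14.7 and 39.0 CPM in NC against 16.7, 17.8 and 19.1 in the implant libraries. Mmp9, another AP-1 target, was not high in NC 3, at 1.25, 13.6 and 5.93 CPM in NC against 30.7, 2.93 and 80.4 in the implant libraries. No gene reached that margin in NC 3 among 10 AP-1 partners, 21 kinases and factors upstream of immediate early genes, or 9 heat shock genes. Of the heat shock genes 6 were highest in NC 3 by less. Hspa1a, an inducible chaperone, stood at 32.2, 53.4 and 77.9 CPM in NC against 44.0, 27.4 and 44.3 in the implant libraries. On deposited totals the genes at least 2-fold above the next library in NC 3 were 1 of the 17 factors, 2 of the 29 other genes and 1 of the 12 targets, against 0.586% of all genes. By any margin 8 of the 17 factors, 8 of the 29 other genes, 2 of the 12 targets and 2 of the 9 heat shock genes were then highest in NC 3, against 6.71%.

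Over all genes tested, 1 gene exceeded Fosb in its margin in NC 3, which places Fosb second of 13999, so that 0.0143% of the genes had at least its margin. That gene was H3f3c (ENSRNOG00000032401), at 5.35, 6.59 and 246 CPM in NC against 6.56, 7.72 and 4.30 in the implant libraries, 31.9 times the next library. RefSeq lists H3f3c as a pseudogene of histone H3.3, and its reads may be shared with near-identical copies, so its value is uncertain. The 6 genes most like Fosb by Pearson's r over the log2 CPM of the 6 libraries, among 11428 eligible genes, were Ube2d3, Rapgef5, Gde1, Palmd, H3f3c and Tdrd7 (r from 0.98 to 0.99). Most of these had a small range. Ube2d3, a ubiquitin-conjugating enzyme, stood at 208, 223 and 290 CPM in NC against 227, 224 and 225 in the implant libraries, and NC 3 was 1.28 times the next library. Palmd, palmdelphin, stood at 51.3, 62.1 and 149 CPM in NC against 68.3, 54.0 and 63.9 in the implant libraries. Such an r rests on NC 3, and without it the r of these 6 genes lay between 0.34 and 0.95 over 5 libraries.

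Among the members, likeness to Fosb differed by measure (6 libraries, given as a description). Pearson's r was 0.95 for Jund, 0.81 for Egr1, 0.76 for Fos, 0.72 for Nr4a1 and 0.65 for Egr3, and lay between -0.09 and 0.30 for Fosl1, Fosl2 and Atf3. By rank, Spearman's rho with Fosb was 1.0 for Nr4a1 and 0.94 for Fos, although the counting intervals of Fosb overlapped among the low libraries, so that their order is not resolved. NC 1 was the lowest library of both Fosb and Nr4a1. Over the 5 libraries without NC 3, the r with Fosb was 0.95 for Nr4a1, 0.77 for Egr3, 0.70 for Fosl1, 0.67 for Egr1 and 0.66 for Fos. It was 0.42 for Jund, -0.30 for Fosl2 and -0.56 for Atf3. Jund thus fell from first to sixth of the 8 genes, and Fosl1 was unlike Fosb with NC 3 and not without it.

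A second pattern split the 9 genes. Atf3 and Fosl1 ran in opposite order over the 6 libraries (rho -1.0, r -0.97), and Atf3 ran with Fosl2 (r 0.84) and with Jun (r 0.98). Counts of Fosl1 were not whole, as given above, so its values may hold reads shared with another entry. The summed level of 6 myelin markers, among them Mbp and Pmp22, was 545, 16842 and 1298 CPM in NC against 6867, 566 and 8157 in the implant libraries. The r of this sum was -0.92 with Atf3, -0.84 with Fosl2, -0.86 with Jun and 0.97 with Fosl1. Marker sums of other cell types moved with these genes too. The fibroblast sum had an r of 0.86 with Atf3, 0.83 with Jun and -0.78 with Fosl1. The Schwann cell sum had 0.80 with Fosl1 and -0.86 with Fosl2, and the sum of T and NK cell markers 0.87 with Fosl2. The libraries with the least myelin RNA, NC 1 and implant 2, thus had the most Atf3 and Jun and the least Fosl1. NC 3, next lowest in myelin markers at 1298 CPM, came next in Atf3 (109 CPM) and Fosl1 (17.6 CPM). It did not come next in Jun, at 216 CPM against 233 in implant 1. These r values compare log2 CPM of the same libraries and share their scaling. In bulk tissue, fewer cells of a type and less RNA per cell cannot be told apart.

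**Figure D3:**
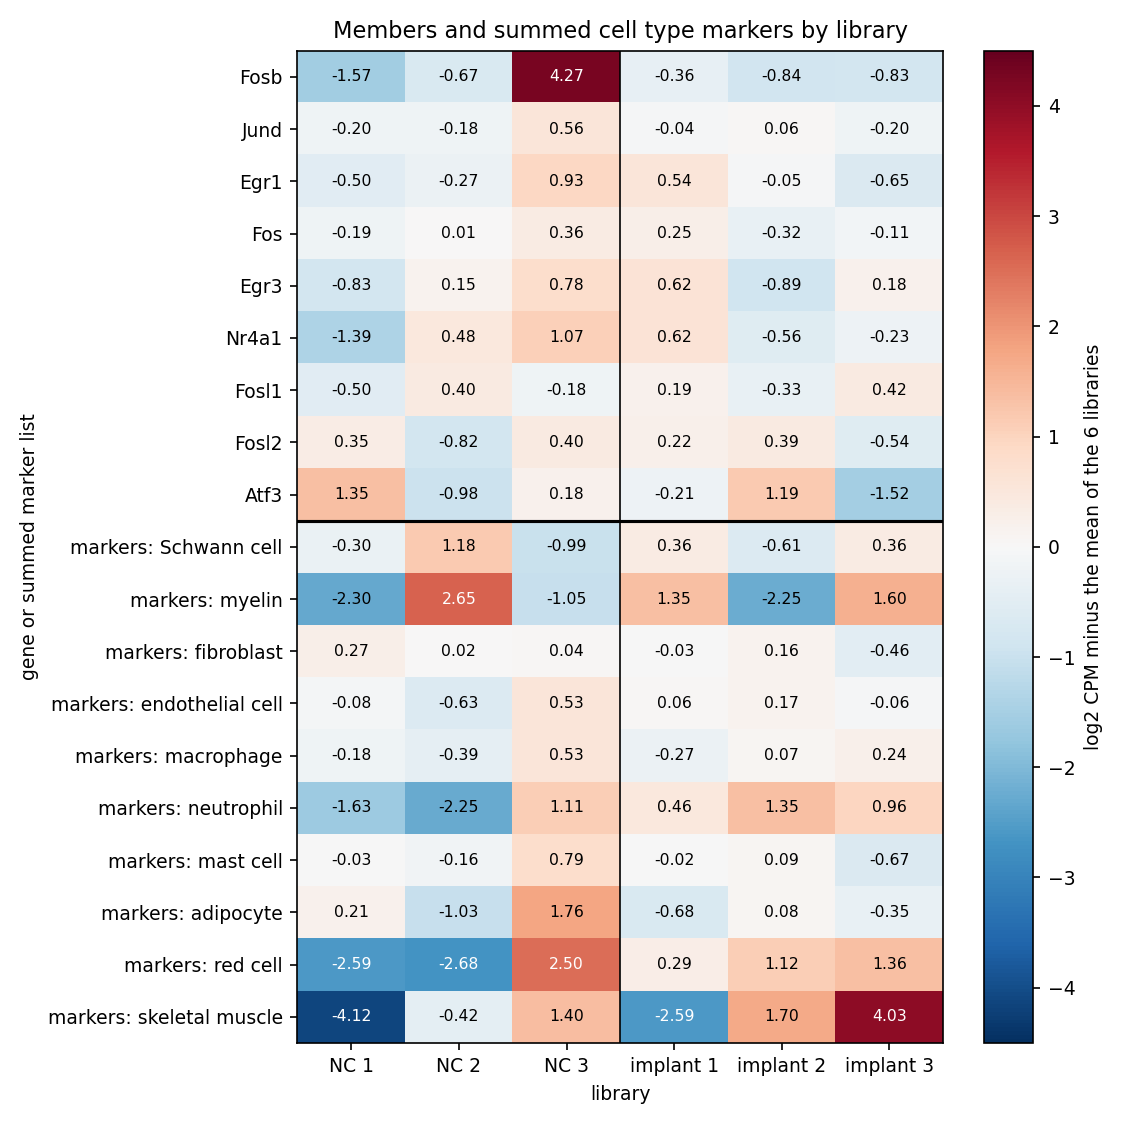
Log2 CPM of each of the 9 genes and of summed cell type markers, minus the mean of the 6 libraries, with 1 column a library. Fosb in NC 3 stands 4.27 above its mean, and the row of Atf3 (1.35, -0.98 and 0.18 in NC) mirrors that of the myelin markers (-2.30, 2.65 and -1.05).

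Markers of several cell types moved with NC 3 too. The 7 Schwann cell markers summed to 812 CPM in NC 3, below the other 5 libraries at 1054 to 3652, and Sox10 stood at 21.8 CPM there against 122 to 243. Of that sum S100b, the only one of the 7 not lowest in NC 3, made up 571 CPM, its second highest level. The other 6 summed to 240 CPM in NC 3 and to 864 to 2900 elsewhere. The 7 adipocyte markers summed to 7934 CPM in NC 3 and to 1145 to 2699 elsewhere, and all 7 were highest in NC 3. The 5 red cell markers in the table summed to 165411 CPM in NC 3 and to 4547 to 74781 elsewhere. Macrophage (1490 CPM), endothelial (1846) and mast cell (188) marker sums were also highest in NC 3, by 1.22 to 1.62 times over the next library. Not every marker followed its sum, as 4 of 7 macrophage, 5 of 7 endothelial and 6 of 7 mast cell markers were highest in NC 3. Of the macrophage markers, Ptprc was highest in implant 2 (115 CPM, against 99.0 in NC 3). Csf1r was highest in implant 3 (307 CPM, against 282 in NC 3). Neutrophil markers summed to 280 CPM in NC 3 and 332 in implant 2, where Fosb was at 9.62 CPM. Of the 85 marker genes in the table, 5 were at 0 in at least 1 library (Ltf, Camp, Krt5, Dsg1 and Krtdap). The part of these cell types in the Fosb peak was not tested.

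Whether the conduit altered these genes was asked by comparing the 3 implant libraries with the 3 NC libraries. Fosb aside, none of the other 8 genes passed edgeR's test, and the groups overlapped for all 8, as they did for all but 5.69% of the genes tested. With p-values adjusted over all genes by Benjamini-Hochberg, edgeR called 0 of 13999 genes (0%). At an unadjusted p under 0.05 it found 241, or 1.72%, none of them one of the 8, while DESeq2 called 11 genes, none of them one of the 8, and limma-voom 0. Nr4a1 averaged 75.8 ± 51.1 CPM (mean ± SD, n = 3 a group, here and below) in NC libraries against 59.9 ± 26.8 in implant libraries, a log2 fold change of -0.34 ± 0.63 (SE). Jund averaged 104 ± 33.5 and 93.1 ± 8.24 CPM (-0.16 ± 0.24). Fos averaged 70.6 ± 14.2 and 65.1 ± 13.4 CPM (-0.12 ± 0.21), which was the smallest SE of the 9 genes. Atf3 averaged 134 ± 100 and 111 ± 96.3 CPM (-0.26 ± 0.82). Egr1 (-0.18 ± 0.47), Egr3 (-0.08 ± 0.54), Fosl1 (0.17 ± 0.30) and Fosl2 (0.00 ± 0.39) were also within their error, each with an edgeR adjusted p of 1.0. For Fosb, whose means were 123 ± 198 and 11.0 ± 2.29 CPM, no test is given.

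The direction of these differences turned on NC 3. With all 6 libraries, 6 of the 8 log2 fold changes other than that of Fosb were negative, against 53% of all genes. Without NC 3 it was 1 of 8, Atf3 at -0.40, against 7460 of 13992 genes, and the median of the 8 moved from -0.14 to 0.16. Leaving out NC 3 takes the highest NC value from each gene highest there, so this count is a description. Egr1 went from -0.18 to 0.40, Egr3 from -0.08 to 0.37 and Nr4a1 from -0.34 to 0.21. Fosb went from -3.48 to 0.41, but it was chosen for its level in NC 3, so its shift is a description only. Without NC 3, none of the 8 genes passed the test either (edgeR adjusted p 1.0 for each).

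**Figure D4:**
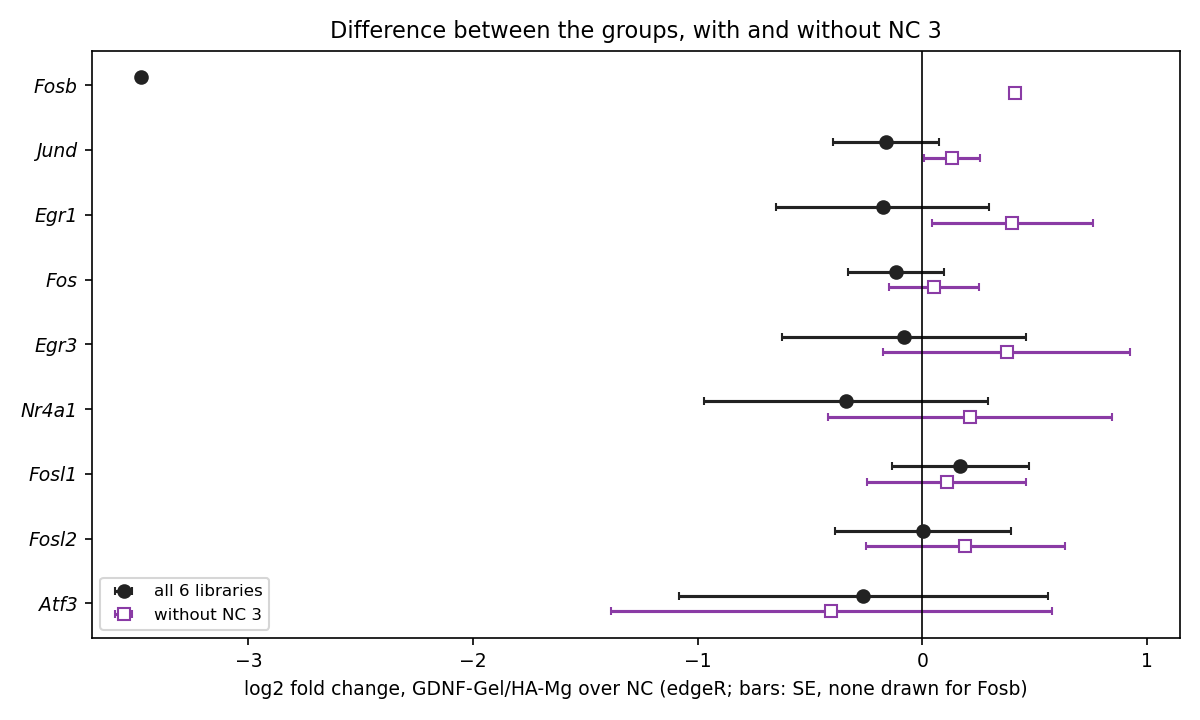
Log2 fold change of each gene, GDNF-Gel/HA-Mg over NC, with all 6 libraries (filled circles) and without NC 3 (open squares), with bars of 1 standard error and none for Fosb. Of the 8 genes other than Fosb, 6 lie below 0 with NC 3 and 1 without it. Fosb, chosen for its level in NC 3, moves from -3.48 to 0.41.

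The direction for other immediate early genes also turned on NC 3. Of the 17 transcription factors 12 were negative (median -0.09) and 3 without NC 3 (median 0.20). Of the 29 genes of other function 18 were negative (median -0.09) and 6 without NC 3 (median 0.23). The median of all genes was -0.01 with NC 3 and -0.02 without it. Of the 98 genes tested in the 6 lists outside the members, edgeR called 0 in either direction. Those with the smallest unadjusted p among immediate early genes were Dusp2, a phosphatase of MAP kinases (0.63 on the log2 scale), and Dusp5, another (0.46), and among transcription factors Klf10 (0.16) and Nr4a3 (-1.31). Among AP-1 targets they were Mmp9, a matrix metalloprotease, with the smallest of all 98 (2.45 ± 1.26, SE), and Il6 (-1.95). Among AP-1 partners these were Atf7 (0.32) and Atf4 (-0.18), and among upstream factors Rps6ka1, a ribosomal S6 kinase (0.48), and Crem, a relative of CREB (-0.36). Hsp90aa1, a heat shock gene, had -0.29. Each had an edgeR adjusted p of 1.0.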

How the data were processed

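The authors deposited each gene's estimated count, made from reads of each library and not normalized, and library totals lay between 15900000 and 18500000. Per the labels' protocols, polyadenylated RNA was made into libraries with a NEBNext Ultra RNA kit, which does not mark the strand. The tools HISAT2, Bowtie2 2.2.8, DESeq2 and StringTie 1.3.1 are listed in the submitters' processing notes, which assign no steps to them. Counter, build and annotation: not given in the sources used here. Columns named Con and Gel_HA-Mg were matched by name and number to the NC and GDNF-Gel/HA-Mg groups. Of the table's genes, 706 had no symbol.

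Counts were rounded, filtered with filterByExpr, scaled by TMM and compared with edgeR 4.0.16 under R 4.3.3 (a two-sided quasi-likelihood test with a group term alone), with Benjamini-Hochberg adjustment over all genes tested. Log2 CPM used 0.5 added CPM. The biological coefficient of variation was 0.384. No pair of libraries agreed within sampling noise (chi-square per degree of freedom at least 86.4). The fit was tested on simulated data. Alternatives were RLE scaling, deposited totals, leaving out haemoglobin genes, DESeq2 1.42.0, limma-voom (limma 3.58.1), other filters, a replicate block, other folds and prior CPM, and each library left out. The members and lists were chosen with earlier results of these data known. A gene of the marker lists is not reported here and was left out of its sum.

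Named were all members, Jun, genes of each list at least 2-fold above the next library in NC 3 or with its 2 smallest unadjusted p, and the 6 genes most like Fosb whose mean log2 CPM was 2 or more, with a symbol that is not provisional. Neighbours of Fosb and the other H3.3 entries were chosen after values were seen. Figures were drawn with matplotlib 3.10.9.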

Additional observations from a re-analysis of the deposited data

How the results depend on the processing

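Every alternative fit, leave-one-out fits included, left the count of called genes at 0, except DESeq2 with 11. DESeq2 gave no p for Fosb. The replicate numbers did not pair the samples (correlation of same-numbered deviations 0.08, -0.74 and 0.05), and with the replicate block 0 genes were called and Fosb had a log2 fold change of -0.97 in place of -3.48. In these deviations from the group means, NC 1 and NC 3 each correlated best with implant 2, and NC 2 with implant 3. Limma-voom gave -1.25 for Fosb. Fosl2, near 0, turned negative with RLE scaling (-0.0098) and DESeq2 (-0.00985). With 1 library left out, log2 fold changes changed sign for all 9 genes in at least 1 fit. They ranged from -1.22 to 0.52 for Atf3, -0.51 to 0.40 for Egr1, -0.44 to 0.37 for Egr3, -0.28 to 0.050 for Fos, -4.04 to 0.41 for Fosb, -0.0098 to 0.47 for Fosl1, -0.30 to 0.24 for Fosl2, -0.29 to 0.13 for Jund and -0.77 to 0.21 for Nr4a1, and none of the 8 other than Fosb passed the threshold. The sign of Fosb, Jund and Nr4a1 changed in 1 fit each, that without NC 3, which for Fosb is a description only.

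The count of members at least 2-fold above the next library in NC 3 stayed at 1, Fosb itself, under each scaling, with no filter on low counts, at 4-fold, and with any of the other 5 libraries left out, and was 7 by any margin. Fosb was chosen for its level in NC 3, so its place in this count is a description only. The excess of Fosb in NC 3 ranged from 5.02 to 5.11 log2 units with 1 other library left out and was 4.75 on deposited totals. With 3 libraries a group, differences of the size seen for most members lie within the spread between libraries.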

Other observations

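The other entries of the table with an H3.3 symbol did not share the peak of H3f3c. The 2 entries named H3f3a stood at 382, 394 and 464 CPM (ENSRNOG00000003220) and at 535, 777 and 431 CPM (ENSRNOG00000006532) in NC. With the conduit they stood at 419, 503 and 488 CPM and at 553, 479 and 615 CPM. The second of these was lowest in NC 3, the library where H3f3c was at 246 CPM.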
